A study of Saccharomyces cerevisiae with 9 samples.

Results

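Rvb1 is an AAA+ ATPase that assembles with its relative Rvb2 into a ring. The ring is a core part of the chromatin remodelling complexes INO80, which slides nucleosomes, and SWR1, which places the histone variant H2A.Z at promoters. The same pair works in the R2TP chaperone complex, which helps to build box C/D snoRNPs, RNA polymerase II and the large PIKK kinases.

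Rvb1-bound chromatin was compared with input chromatin in 5 of the 9 libraries of the series, over 7036 promoter windows and 7036 gene body windows of 500 bp. The cells were budding yeast of the W303 background, in log phase, with 1 protein carrying a TAP tag (tandem affinity purification tag). The tested group, written Rvb1 IP, held 2 libraries of material that rabbit IgG recovered from sonicated lysates of the strain with tagged Rvb1. A control pulldown, written Pgk1 IP, held 2 libraries made in the same way from a strain with tagged Pgk1, an enzyme of glycolysis. The input group held 3 libraries of chromatin before pulldown, 1 from each of the Rvb1, Rvb2 and Pgk1 strains, and the input of the Rvb1 strain is called the own-strain input. Every library came from cells held for 10 min without glucose, so no comparison with cells in glucose is possible from these groups. Whether the pulldowns of a strain started from different cultures is not stated, and the p-values therefore cover only library-to-library spread, part or all of which can be technical.

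The Rvb1 IP libraries held 1993420 and 1278825 counts in promoter windows and 1568654 and 1154921 in gene body windows, against 4342277 to 4636420 and 4398632 to 4701031 in the inputs. Counts in any window stopped at 1148 or just above, and 1148 is the number of distinct 75-base reads that can touch a 500 bp window on both strands. The median promoter window stood at 23.0% and 14.5% of that ceiling in Rvb1 IP, against 53.6% to 57.1% in the inputs. Values below are CPM (counts scaled to a common library total within each table, after TMM), and log2 differences are Rvb1 IP over the 3 inputs with their standard error (SE), from edgeR's quasi-likelihood test. Calls use a threshold of 0.05 on the p-value after Benjamini-Hochberg adjustment across the whole table.

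Rvb1 IP differed from input over much of the genome, and by small amounts. Of 7034 promoter windows tested, 3642 were called (51.8%), 1784 of them higher (25.4%) and 1858 lower (26.4%). The median size of the difference, whatever its sign, was 0.32 on the log2 scale. Among the called promoters, 75 were higher by a log2 of at least 1 and 79 were lower by as much. At gene bodies 3439 of 7035 windows were called (48.9%), with 1634 higher (23.2%) and 1805 lower (25.7%). There, 220 were higher by at least 1 and only 4 were lower by as much, namely YKR104W, SEO1, GIN4 and PRM7. At PRM7 the inputs were unlike, with 41 CPM in the Rvb1 and Rvb2 strains and 145 CPM in the Pgk1 strain. Its difference was -1.47 over the 3 inputs and -0.60 over the own-strain input. With plain library totals in place of TMM the split was 1369 higher and 2207 lower at promoters and 1130 higher and 2523 lower at gene bodies. With the total over both windows it was 1893 and 1524 at promoters and 790 and 3460 at gene bodies, where the median over all windows moved to -0.30 from -0.014. Both counts rested on the first pulldown: without Rvb1 IP 1 no window of either table was called by edgeR, while 1969 promoters and 1595 gene bodies had an unadjusted p under 0.05. Leaving out 1 input gave 2020 to 2152 called promoters and 1503 to 1815 gene bodies. The spread behind these calls was estimated from all groups together, the inputs among them.

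The pulldowns ranked the windows alike but differed in scale. The median size of the promoter difference was 0.40 in Rvb1 IP 1 and 0.23 in Rvb1 IP 2, and at gene bodies it was 0.40 and 0.19. To leave no library in common, Rvb1 IP 1 was set against the Rvb1 input and Rvb1 IP 2 against the Rvb2 input. Over 6995 promoter windows the correlation of these values was 0.82 (Pearson) and 0.85 (Spearman), and over 7003 gene bodies it was 0.81 and 0.84. These are correlations across windows, which are not independent replicates, and the 2 inputs used are themselves alike. The slope of the second pulldown on the first was 0.49 at promoters and 0.48 at gene bodies. Both Rvb1 IP libraries lay above all 3 inputs at 2682 promoters (38.1%) and below all 3 at 2773 (39.4%), and at gene bodies at 2657 (37.8%) and 2775 (39.4%).

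**Figure D1:**
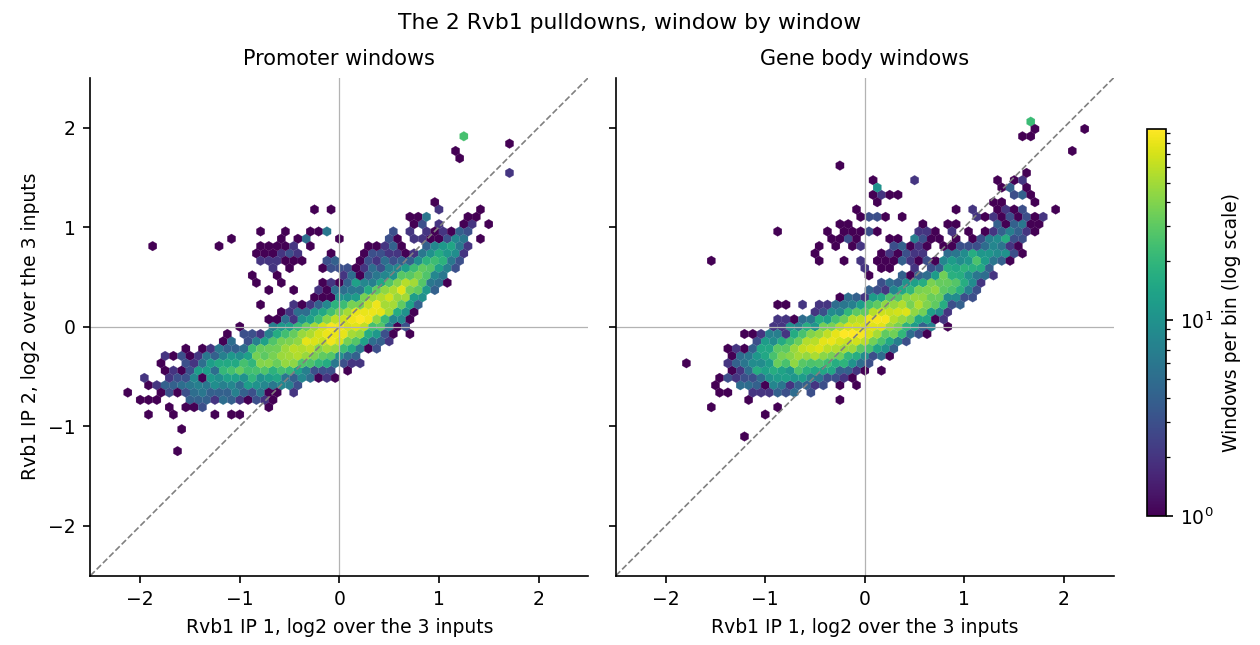
Each panel plots log2 of Rvb1 IP 1 over the 3 inputs (x axis) against log2 of Rvb1 IP 2 over the same inputs (y axis), for promoter windows on the left and gene body windows on the right, with colour giving the number of windows per bin on a log scale and 2 windows in each panel outside the axes. The main cloud is flatter than the dashed line of equality, with a median size of 0.40 in the first pulldown and 0.23 in the second at promoters, and a small cloud of mitochondrial windows lies above it.

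Among promoters that met the naming rule (called, with inputs within 1.5 times of each other and both Rvb1 libraries beyond all of them), the highest difference was at the window shared by SWR1 and RQC1. SWR1 encodes the ATPase of the SWR1 complex, in which Rvb1 is a subunit, and RQC1, its divergent neighbour, encodes a part of the ribosome quality control complex. The window held 435 and 383 CPM in Rvb1 IP, 118 and 123 CPM in Pgk1 IP, and 137, 124 and 129 CPM in the inputs. Both Rvb1 libraries stood far above every other library, and both Pgk1 libraries lay below the inputs. The log2 difference from input was 1.66 (SE 0.28, edgeR adjusted p = 0.0044). A correction for the count ceiling moved it to 2.18. It also moved the QRI5 promoter, named below, from 1.31 to 1.65 and the YPR195C gene body from 1.62 to 2.04. Sizes are given without that correction unless stated. The difference from Pgk1 IP, tested directly in the same fit, was 1.76 (SE 0.32, edgeR adjusted p = 0.013). In the background of that direct contrast 1708 promoters were called (24.3%), 866 higher (12.3%) and 842 lower (12%). Of all named windows in both tables, of whichever kind, 41 were called over Pgk1 IP. Fewer were called when Rvb1 IP 1 or Pgk1 IP 2 was left out. Many of these windows were chosen for an extreme difference of Rvb1 IP from input. The choice and the contrast share the Rvb1 libraries, so the count is not independent of the choice.

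Several other promoters had the same form, high in both Rvb1 libraries and near the inputs in Pgk1 IP. QRI5 and MSS51 are divergent neighbours, and MSS51 encodes the translational activator of the mitochondrial COX1 mRNA. The QRI5 window held 376 and 307 CPM in Rvb1 IP, 157 and 132 CPM in Pgk1 IP, and 140, 136 and 137 CPM in the inputs. The groups of Rvb1 and input libraries did not overlap, while 1 of the 2 Pgk1 libraries lay below the inputs. The log2 difference from input was 1.31 (SE 0.23, edgeR adjusted p = 0.0044) at QRI5 and 1.25 (SE 0.22) at MSS51.

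SLK19, which encodes a protein of the kinetochore and spindle, held 363 and 268 CPM in Rvb1 IP, 154 and 120 CPM in Pgk1 IP, and 129, 131 and 128 CPM in the inputs. MRPL8, a gene for a protein of the mitochondrial large ribosomal subunit, held 337 and 280 CPM in Rvb1 IP, 138 and 123 CPM in Pgk1 IP, and 135, 136 and 135 CPM in the inputs. At both, the lower Rvb1 library was above every Pgk1 and input library. Their log2 differences from input were 1.29 (SE 0.27, edgeR adjusted p = 0.0051) and 1.19 (SE 0.21, edgeR adjusted p = 0.0045). AGP1 (amino acid permease, 1.20), PTC6 (protein phosphatase, 1.18), YPR170W-A (1.16), ZAP1 (zinc-responsive activator, 1.16) and PRP40 (U1 snRNP protein, 1.15) completed the set, and each was also called higher over Pgk1 IP, by 0.96 to 1.24.

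GID7, which encodes a subunit of the GID ubiquitin ligase, stood apart from these. It held 339 and 300 CPM in Rvb1 IP, 458 and 184 CPM in Pgk1 IP, and 139, 139 and 141 CPM in the inputs. Here the Pgk1 libraries enclosed the Rvb1 libraries, all of them above the inputs. The difference from input was 1.20 (SE 0.32, edgeR adjusted p = 0.0096) and that from Pgk1 IP was 0.02 (SE 0.36).

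**Figure D2:**
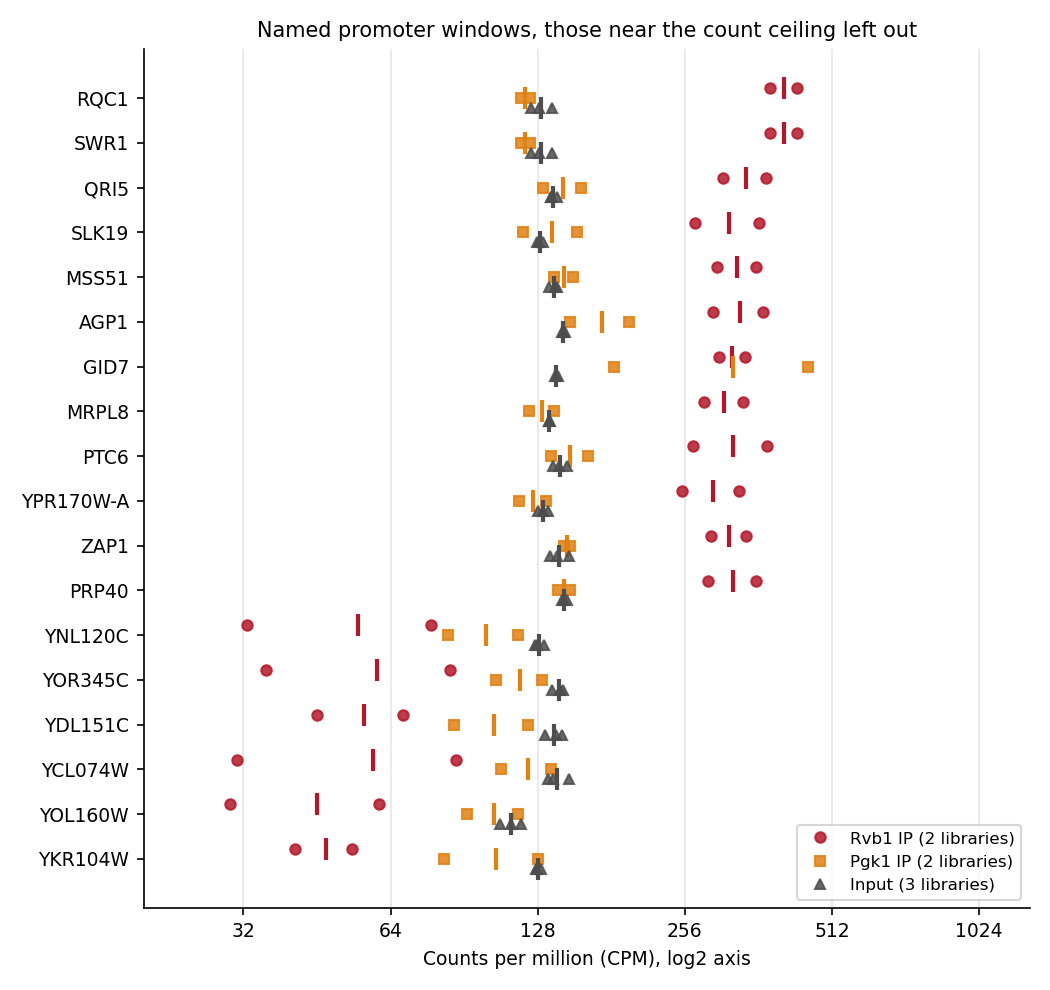
CPM in each library (x axis, log2 scale) at 18 promoter windows (y axis), with red circles for Rvb1 IP, orange squares for Pgk1 IP, grey triangles for Input and a vertical tick at each group mean. The 12 upper windows are higher in both Rvb1 IP libraries than in all inputs, as at MRPL8 with 337 and 280 CPM against 135, 136 and 135 CPM, and the 6 lower windows are lower in both, as at YKR104W with 41 and 53 CPM against 130, 127 and 128 CPM.

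Among promoters called higher by at least 1 and below the ceiling there were 46, and 43 of them belonged to protein-coding genes of the reference table. Of those 43, 34 were divergent and 9 were tandem. The median log2 of these 46 windows in Pgk1 IP over the same inputs was 0.06, and 38 lay within 0.3 of 0. Of the 79 promoters called lower by at least 1, 71 lay in that band too. The median over all promoters was -0.02, and the share of all promoters in the band is not given here. Over all windows, 1010 of 3039 divergent promoters and 645 of 2849 tandem promoters were higher, while 586 and 777 were lower. With library totals the divergent promoters had 799 higher and 744 lower, and the tandem ones 467 and 915. The medians were 0.08 and -0.04, of which the first became -0.0096 with library totals and the second 0.010 with the sum of both windows as library size. Divergent genes can share a window, and 44 promoter windows in 13 sets held identical counts, so these counts hold some windows more than once.

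The lowest promoter under the same rule was YKR104W. It held 41 and 53 CPM in Rvb1 IP, 82 and 128 CPM in Pgk1 IP, and 130, 127 and 128 CPM in the inputs. Both Rvb1 libraries were far below every input, and 1 of the Pgk1 libraries was also below them. The log2 difference from input was -1.46 (SE 0.24, edgeR adjusted p = 0.0044). YOL160W (-1.35), YCL074W (-1.32), YDL151C (-1.32), YOR345C (-1.29) and YNL120C (-1.27) followed. In these 5 the first pulldown was the lower one, as at YCL074W with 31 CPM in Rvb1 IP 1 and 87 CPM in Rvb1 IP 2, against 134, 148 and 138 CPM in the inputs. Of the 79 promoters called lower by at least 1, 43 belonged to ORFs absent from the reference table and 30 to protein-coding genes in it. FLO11, which encodes a cell wall flocculin, was among them at -1.18.

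Of the 10 highest gene bodies of the naming rule below the ceiling, 8 had a log2 of at least 1 in Pgk1 IP over the same inputs as well. HXT6, a high-affinity glucose transporter gene, held 536 and 504 CPM in Rvb1 IP, 983 and 254 CPM in Pgk1 IP, and 167, 179 and 171 CPM in the inputs. All 4 pulldown libraries lay above the inputs, and the Pgk1 libraries spread around the Rvb1 libraries. The log2 difference from input was 1.59 (SE 0.48, edgeR adjusted p = 0.015) for Rvb1 IP and 1.83 for Pgk1 IP, and the direct difference was -0.24 (SE 0.53). HXT6 and its neighbour HXT7 (1.55) are near-identical copies, so reads may be split between them.

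ENO1, which encodes enolase, held 485 and 398 CPM in Rvb1 IP, 790 and 219 CPM in Pgk1 IP, and 155, 153 and 160 CPM in the inputs. SCR1, the RNA of the signal recognition particle and a product of RNA polymerase III, held 492 and 370 CPM in Rvb1 IP, 667 and 196 CPM in Pgk1 IP, and 145, 152 and 156 CPM in the inputs. At both, every pulldown library was above every input. The difference from input at SCR1 was 1.52 (SE 0.43, edgeR adjusted p = 0.012), and ENO1 was called as well (SE 0.44, edgeR adjusted p = 0.013). The gene of the control protein, PGK1, was higher by 1.21 (SE 0.37) in Rvb1 IP and by 1.19 in Pgk1 IP. Pgk1 IP over input was not called at any of these 5 genes, with an edgeR adjusted p of 0.27 at each, and its libraries lay far apart at all of them.

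Other gene bodies were also called higher over Pgk1 IP. SWR1 held 414 and 292 CPM in Rvb1 IP, 134 and 131 CPM in Pgk1 IP, and 135, 136 and 132 CPM in the inputs. No Pgk1 or input library exceeded 136 CPM. The log2 difference from input was 1.40 (SE 0.27, edgeR adjusted p = 0.0055) and that from Pgk1 IP was 1.42 (SE 0.31, edgeR adjusted p = 0.027). In the background of that contrast 969 gene bodies were called (13.8%), 471 higher (6.7%) and 498 lower (7.08%). YPR195C was higher by 1.62 (SE 0.28) over input and by 1.61 over Pgk1 IP. YIL054W was higher by 1.48 (SE 0.27) and 1.11, and its Pgk1 libraries, at 189 and 140 CPM, also lay above the inputs, at 122, 124 and 131 CPM. Of the 190 gene bodies called higher by at least 1 and below the ceiling, 69 were also called higher over Pgk1 IP, and 48 had a log2 of at least 1 in Pgk1 IP over the same inputs.

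The naming rule requires both pulldowns to lie below all inputs. Among the lowest gene bodies it gave, the first pulldown was again the lower one. GIN4, which encodes a kinase of the septin ring, held 53 and 85 CPM in Rvb1 IP, 122 and 134 CPM in Pgk1 IP, and 134, 139 and 137 CPM in the inputs. The Rvb1 libraries lay below all others. The log2 difference from input was -1.02 (SE 0.18, edgeR adjusted p = 0.0053) and that from Pgk1 IP was -0.94 (SE 0.21, edgeR adjusted p = 0.027). YKR104W stood at -1.16, SEO1 at -1.02 and YCL075W at -0.98.

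**Figure D3:**
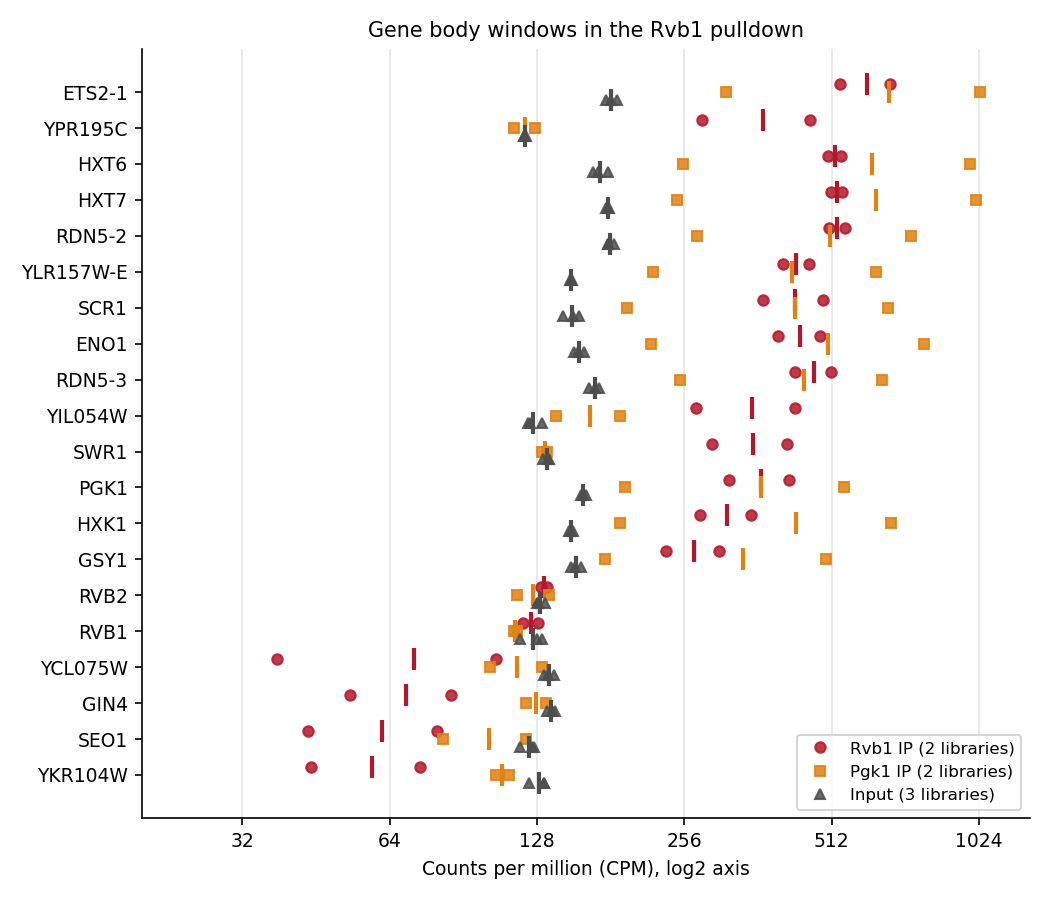
CPM in each library (x axis, log2 scale) at 20 gene body windows (y axis), with red circles for Rvb1 IP, orange squares for Pgk1 IP, grey triangles for Input and a vertical tick at each group mean. At HXT6, ENO1 and SCR1 the Pgk1 IP libraries enclose those of Rvb1 IP, whereas at SWR1 the Rvb1 IP libraries at 414 and 292 CPM stand clear of Pgk1 IP at 134 and 131 CPM and of the inputs.

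Promoter windows took a larger share of the reads in Rvb1 IP than in input. Of the reads in both kinds of window, 56.0% and 52.5% lay in promoters in Rvb1 IP, 50.7% and 49.8% in Pgk1 IP, and 49.7%, 49.5% and 49.7% in the inputs. Neither Rvb1 library overlapped the inputs, and the difference of the means was 4.66 percentage points, or 2.95 without Rvb1 IP 1 and 6.36 without Rvb1 IP 2. An exact two-sided permutation test gave p = 0.1, the smallest value that 2 libraries against 3 can reach.

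Gene by gene, the promoter difference exceeded the gene body difference by a median of 0.32 when both windows shared 1 library size. Of 7035 genes, 3785 were called in that interaction test (53.8%), 3275 with the promoter higher (46.6%) and 510 with it lower (7.25%). The split turned with the scaling: with TMM in each table it was 1207 and 1475, with a median of -0.021, and without Rvb1 IP 1 only 1 gene was called. The values and calls below keep the shared library size and are relative to 0, not to the median of 0.32.

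RQC1 had the largest excess of promoter over gene body, at 1.82 (SE 0.26, edgeR adjusted p = 0.0037). Its own gene body held 148 and 143 CPM in Rvb1 IP against 131, 130 and 126 CPM in the inputs, a difference of 0.18 that was not called. The gene on the other side of that window, SWR1, was high in its gene body as well, and its excess was 0.60. SLK19 repeated this, with an excess of 1.70 (SE 0.25) and a gene body at -0.05. On its other side lies TOA1, whose gene body was higher by 1.30 (SE 0.26, edgeR adjusted p = 0.0056). XRN1, the main cytoplasmic 5′ to 3′ exoribonuclease, had an excess of 1.54, with a promoter at 0.96 and a gene body at -0.23. At the other end were SCR1 (-1.40), YDL096C (-1.37) and YIL029W-A (-1.29), each with a gene body called higher. The promoters of YDL096C (-0.54) and YIL029W-A (-0.86) were called lower, and that of SCR1, at -0.21, was not called.

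**Figure D4:**
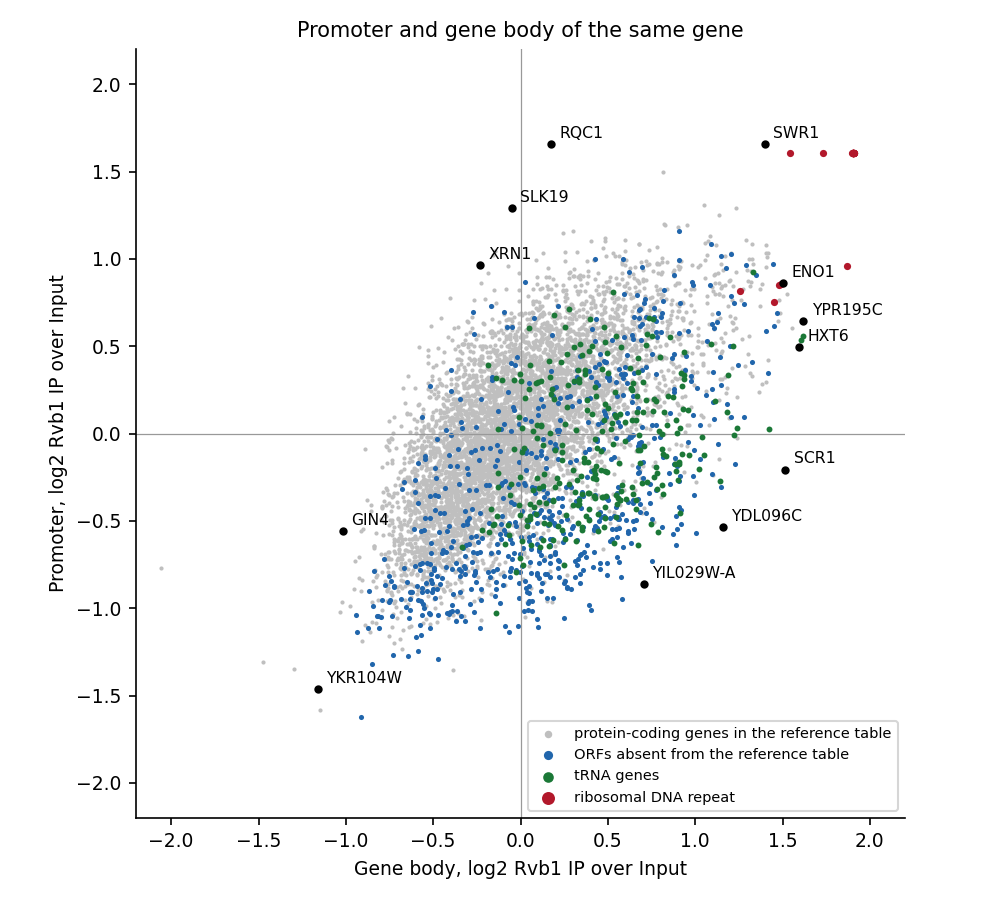
Log2 of Rvb1 IP over Input in the gene body (x axis) and the promoter (y axis) of the same gene, with grey points for protein-coding genes, blue for ORFs absent from the reference table, green for tRNA genes and red for the ribosomal DNA repeat, and 10 genes outside the axes. RQC1 and SLK19 are high at the promoter and near 0 in the gene body, SWR1 is high in both, and many blue and green points lie to the lower right of the grey cloud.

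The genes of the complexes that contain Rvb1 were not a uniform group. Of 15 INO80 complex genes, 5 promoters were higher and 1 was lower, with a median of 0.16, and of 15 SWR1 complex genes again 5 were higher and 1 was lower, with a median of 0.15. Over all promoters 25.4% were higher and the median was -0.0042. The SWR1 list had 3 higher and 2 lower with library totals, and with the sum of both windows as library size each list had 5 higher and none lower. IES6 (0.83), IES1 (0.60) and INO80 itself (0.47) were higher in the first list, and SWR1, the H2A.Z gene HTZ1 (0.71) and the bromodomain gene BDF1 (0.53) in the second. The actin gene ACT1 (0.56), listed in both, was higher too. ARP4, an actin-related subunit of both, was lower at -0.29. RVB1 held 120 and 135 CPM at its promoter in Rvb1 IP, 117 and 115 CPM in Pgk1 IP, and 140, 133 and 129 CPM in the inputs. These ranges overlapped, and the difference of -0.09 (SE 0.08) was not called. RVB2 stood at 0.16 (SE 0.08), also not called, and both gene bodies lay within 0.03 of 0.

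Genes of R2TP, the TTT complex and the snoRNPs they help to build were more often lower than higher. Of 19, 1 promoter was higher, 8 were lower (42.1%, against 26.4% of all promoters) and 10 were not called, with a median of -0.26. At gene bodies 2 were higher and 11 lower (57.9%, against 25.7% of all gene bodies), with a median of -0.37. With library totals the promoter counts were 0 and 11, and with the sum of both windows as library size the gene body counts were 0 and 14. NOP58, a core box C/D snoRNP protein gene, held 82 and 109 CPM at its promoter in Rvb1 IP, 132 and 140 CPM in Pgk1 IP, and 141, 150 and 142 CPM in the inputs. Its Rvb1 libraries lay below all others, and the difference from input was -0.63 (SE 0.11, edgeR adjusted p = 0.0045). TTI1 (-0.67), TEL2 (-0.62) and GAR1 (-0.54) were also lower, and BCD1 (0.29) was the promoter that was higher.

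Genes of RNA polymerase II and its general factors were mostly high at promoters and near the inputs in Pgk1 IP. Of 21 promoters, 14 were higher (66.7%, against 25.4% of all promoters) and none was lower. The median was 0.35, against -0.01 in Pgk1 IP over the same inputs. Directly over Pgk1 IP 11 were called higher, beside 12.3% of all promoters. TOA1, the large subunit of TFIIA, held 283 and 211 CPM in Rvb1 IP, 154 and 121 CPM in Pgk1 IP, and 131, 128 and 130 CPM in the inputs. RPB2, the second-largest polymerase subunit, held 292 and 203 CPM in Rvb1 IP, 112 and 127 CPM in Pgk1 IP, and 133, 135 and 133 CPM in the inputs. In both genes the Rvb1 libraries stood above all Pgk1 and input libraries, with differences of 0.94 (SE 0.22) and 0.90 (SE 0.20). TFG1 of TFIIF (0.88), TAF5 of TFIID (0.84), RPB4 (0.77) and RPB7 (0.69) followed. At gene bodies 11 were higher (52.4%, against 23.2% of all gene bodies) and 1 was lower, with a median of 0.25. These values use TMM, and the median over all gene bodies was -0.30 with the sum of both windows as library size. RPO21, the largest subunit, was at -0.03 at its promoter and was lower in its gene body, at -0.49 (SE 0.13, edgeR adjusted p = 0.0087).

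Nuclear genes for mitochondrial proteins were more often higher than lower. Of 67 mitochondrial ribosomal protein genes, 33 promoters were higher (49.3%, against 25.4% of all) and 5 lower (7.46%, against 26.4%). Their median was 0.24, against -0.06 in Pgk1 IP. At gene bodies 39 were higher (58.2%, against 23.2% of all) and 1 lower, with a median of 0.33. With library totals the promoter counts were 21 and 7, and with the sum of both windows as library size the gene body counts were 14 and 8, with a median of 0.050. Direct calls over Pgk1 IP were made for 20 of these promoters, all higher, beside 12.3% of all promoters called higher. MRPS18 (0.95), MRPL4 (0.86), RSM28 (0.85) and MRPS12 (0.83) followed MRPL8, and MRPL35 was lowest at -0.54. Of 38 respiration genes, 16 promoters were higher (42.1%) and 2 lower (5.26%). SDH1 (succinate dehydrogenase, 0.75) and CYC7 (cytochrome c, 0.63) led, and SDH2 (-0.42) was lowest. At gene bodies 13 were higher (34.2%), ATP15 (1.06) most, and none was lower. But with the sum of both windows as library size the counts were 4 and 4, and the median of 0.28 became -0.0079.

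Cytosolic ribosomal protein genes did not share that direction. Of 137, 5 promoters were higher (3.65%, against 25.4% of all promoters) and 29 lower (21.2%, against 26.4%). The share lower was thus not above that of all promoters. The median was -0.05, which became 0.0063 without Rvb1 IP 2. With the sum of both windows as library size 8 were higher and 18 lower. RPL43A held 311 and 245 CPM in Rvb1 IP, 154 and 138 CPM in Pgk1 IP, and 132, 141 and 132 CPM in the inputs, a difference of 1.05 (SE 0.20). RPS8B held 75 and 97 CPM in Rvb1 IP, 157 and 135 CPM in Pgk1 IP, and 150, 145 and 140 CPM in the inputs, a difference of -0.78 (SE 0.13). Many of these genes are near-identical pairs, so the value of a single copy is uncertain. Of 36 ribosome biogenesis genes, 17 promoters were lower (47.2%), with a median of -0.26. So were 30 gene bodies (83.3%, against 25.7% of all gene bodies), with a median of -0.51. None of those gene bodies was higher. NOG2, a GTPase of 60S maturation, held 54 and 85 CPM at its promoter in Rvb1 IP against 124, 137 and 133 CPM in the inputs (-0.95, SE 0.19). The promoters of HAS1 (0.62) and RRP12 (0.48) were the exceptions.

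**Figure D5:**
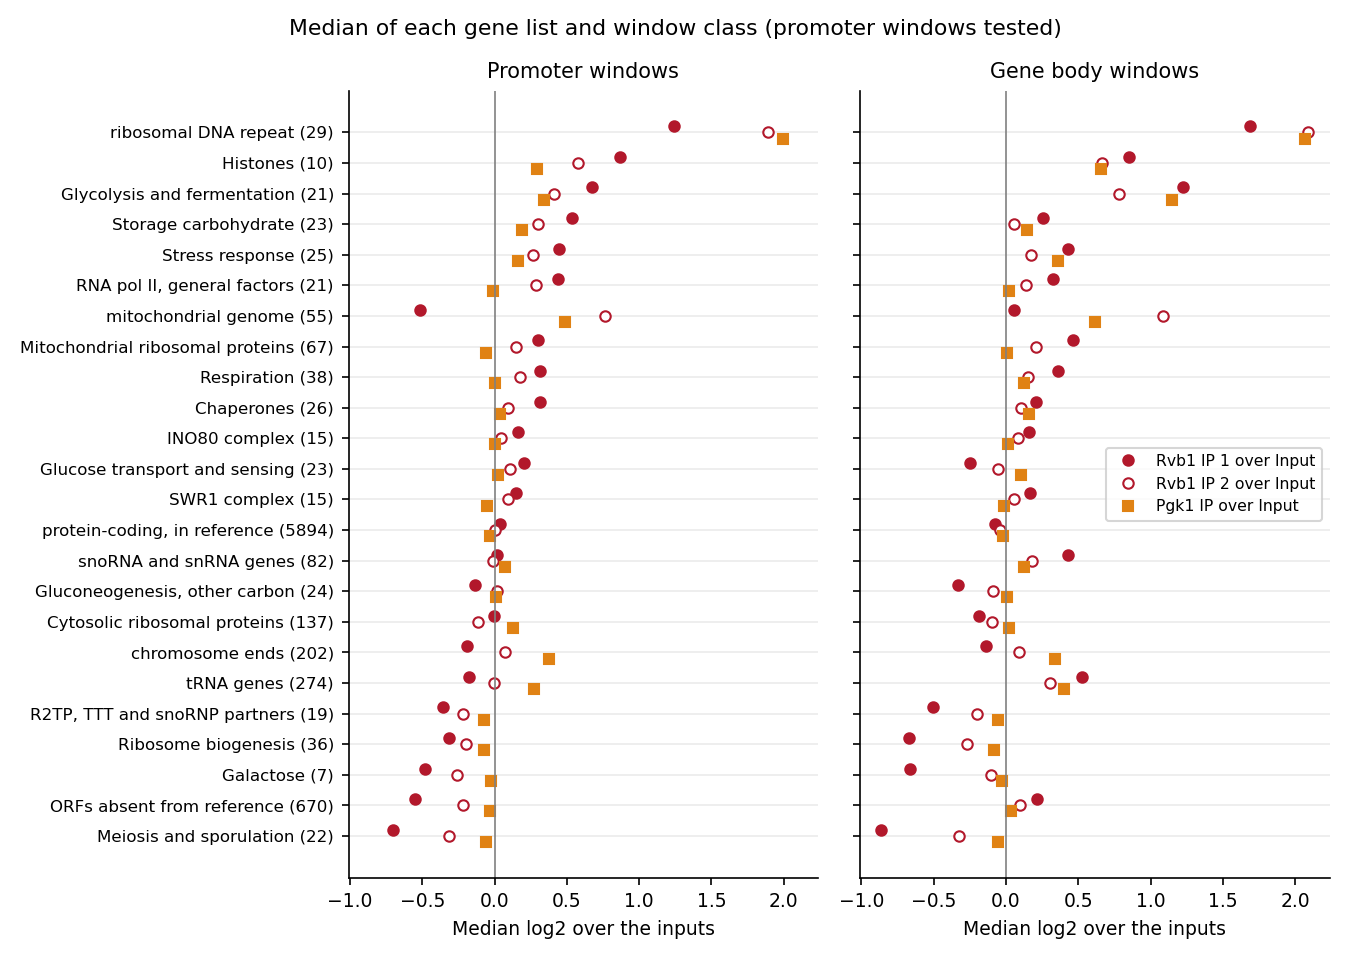
Median log2 over the inputs (x axis) of each gene list or window class (y axis, number of promoter windows tested in brackets), with filled red circles for Rvb1 IP 1, open red circles for Rvb1 IP 2 and orange squares for Pgk1 IP, at promoters on the left and gene bodies on the right. At promoters the RNA polymerase II, mitochondrial ribosomal protein, meiosis and ribosome biogenesis lists lie away from 0 in both Rvb1 IP libraries while Pgk1 IP is near 0, and the mitochondrial genome has medians of -0.51 and 0.77 in the 2 Rvb1 IP libraries.

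Glucose metabolism genes were high in Rvb1 IP, with their control values also above input. Of 21 glycolysis and fermentation genes, 16 promoters were higher (76.2%, against 25.4% of all promoters) and none lower. Their median was 0.59, against 0.34 in Pgk1 IP over the same inputs. At gene bodies 13 were higher (61.9%, against 23.2% of all gene bodies) and 2 lower, or 10 and 4 with the sum of both windows as library size. The median was 1.06, against 1.15 in Pgk1 IP. PDC1, which encodes the main pyruvate decarboxylase, held 356 and 279 CPM at its promoter in Rvb1 IP, 209 and 151 CPM in Pgk1 IP, and 151, 145 and 139 CPM in the inputs. Both Rvb1 libraries exceeded every other library. Its difference was 1.13 (SE 0.24) from input and 0.84 (SE 0.27) from Pgk1 IP, with edgeR adjusted p = 0.0051 and 0.037. At gene bodies none of the 21 genes was called over Pgk1 IP by edgeR.

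Storage carbohydrate genes, which make and use glycogen and trehalose, were high at promoters. Of 23, 16 promoters were higher (69.6%, against 25.4% of all) and 3 lower (13.0%, against 26.4%). Their median was 0.48, against 0.19 in Pgk1 IP. At gene bodies 2 were higher (8.7%, against 23.2% of all) and 3 lower (13.0%, against 25.7%). With the sum of both windows as library size none was higher and 9 were lower, and the gene body median of 0.18 became -0.11. PGM2 held 290 and 234 CPM at its promoter in Rvb1 IP against 132, 135 and 135 CPM in the inputs (0.97, SE 0.25). GPH1, glycogen phosphorylase, held 279 and 290 CPM in Rvb1 IP, 282 and 149 CPM in Pgk1 IP, and 144, 148 and 148 CPM in the inputs. The Rvb1 libraries were above all inputs, but 1 Pgk1 library lay between them. GSY1 (0.92) and GLC3 (0.91) followed, and none of these 4 was called over Pgk1 IP. TPS3 (0.74), PIG2 (0.39) and GLG1 (0.34), 3 of the 23 promoters, were called higher over it, beside 12.3% of all promoters. PIG1, at -0.28 over input, was the 1 called lower over Pgk1 IP, beside 12% of all promoters.

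Stress genes followed at promoters, with 12 of 25 higher (48%, against 25.4% of all) and 2 lower (8%, against 26.4%). Their median was 0.46, against 0.16 in Pgk1 IP. MSC1 (1.02) and CTT1, cytosolic catalase (0.94), led, and GRE1 was lowest at -0.79. At gene bodies 7 were higher (28%, against 23.2% of all gene bodies) and 1 lower. Their gene body median of 0.26 became -0.024, with 3 higher and 3 lower, when library size was the sum of both windows. Of 26 chaperone promoters, 8 were higher (30.8%) and 4 lower (15.4%), with a median of 0.19. HSP30 was higher at 0.58 and SSA3 was lower at -0.90. HSP26 had 137 and 145 CPM in Rvb1 IP, 145 and 141 CPM in Pgk1 IP, and 144, 143 and 139 CPM in the inputs, which overlapped. Of 23 glucose transport promoters, 6 were higher and 6 lower (26.1% each), close to the 25.4% and 26.4% of all promoters, and 3 and 7 with library totals. The 6 lower ones were all hexose transporter genes, with HXT10 (-0.71) the lowest of those called and HXT11 at -0.64. The lowest value in the list, -3.12, was not called. HXT3 (0.54) and HXT2 (0.53) led the higher ones, which also held STD1 (0.45) and the invertase gene SUC2 (0.26).

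Histone genes were higher as a block. Of 10, 9 promoters were higher (90%, against 25.4% of all promoters) and 1, the linker histone gene HHO1, was lower at -0.23. HTB1 held 275 and 233 CPM in Rvb1 IP, 209 and 157 CPM in Pgk1 IP, and 151, 148 and 148 CPM in the inputs. Its difference was 0.77 (SE 0.20, edgeR adjusted p = 0.009), and the groups did not overlap. The core histone genes lie in divergent pairs that share their promoter region, so these are fewer independent windows than genes. No histone promoter was called over Pgk1 IP.

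Genes of meiosis and of galactose use were low. Of 22 meiosis and sporulation genes, no promoter was higher and 14 were lower (63.6%, against 26.4% of all promoters). The median was -0.53, against -0.06 in Pgk1 IP. At gene bodies 20 were lower (90.9%, against 25.7% of all gene bodies), with a median of -0.63. DMC1, the meiotic recombinase gene, held 49 and 105 CPM at its promoter in Rvb1 IP, 158 and 141 CPM in Pgk1 IP, and 136, 139 and 132 CPM in the inputs. Both Rvb1 libraries lay below the inputs, the first far below, and the difference was -0.90 (SE 0.20, edgeR adjusted p = 0.006). SPS4 was lower at both its promoter (-0.71) and its gene body (-0.93). Of 7 galactose genes, 4 promoters (57.1%) and 5 gene bodies (71.4%) were lower and none was higher. Gluconeogenesis and other carbon source genes had 6 of 24 promoters higher (25.0%) and 7 lower (29.2%), close to the shares over all promoters. Of their gene bodies 11 were lower (45.8%, against 25.7% of all) and none was higher.

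By class of window, the 670 ORFs absent from the reference table stood out at promoters. There 73 were higher (10.9%, against 25.4% of all promoters) and 379 lower (56.6%, against 26.4%). Their median was -0.42, against -0.03 in Pgk1 IP. At their gene bodies 243 were higher (36.3%, against 23.2% of all gene bodies) and 143 lower, with a median of 0.17. With the sum of both windows as library size the counts were 143 and 238 and the median -0.13. In the interaction test 229 of them had the promoter below the gene body and 104 above it. For the 5894 protein-coding genes of the table, 1652 promoters were higher (28.0%) and 1363 lower (23.1%), or 1263 and 1659 with library totals. The interaction gave 3116 with the promoter above and 152 with it below. Both of these interaction splits are relative to 0 with 1 library size for both windows. The split over all genes turned with TMM in each table.

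The windows of tRNA genes, which RNA polymerase III transcribes, differed by position. Of 274 gene bodies, 123 were higher (44.9%, against 23.2% of all gene bodies) and none was lower. The median was 0.42, against 0.40 in Pgk1 IP. With library totals the counts were 96 and 9, and with the sum of both windows as library size 66 and 31, with a median of 0.14. At promoters 15 were higher (5.47%, against 25.4% of all) and 86 lower (31.4%, against 26.4%), or 25 and 75 with that sum. Their median was -0.10, against 0.27 in Pgk1 IP. In the direct contrast 119 tRNA promoters were lower in Rvb1 IP than in Pgk1 IP and none was higher. Of all promoters 12% were lower and 12.3% higher there. The window tP(AGG)C was the highest of these promoters, at 0.92, and tG(GCC)P2 was among the highest of the gene bodies, at 1.42. Of 82 snoRNA and snRNA genes, 35 gene bodies were higher (42.7%, against 23.2% of all) and 6 lower (7.32%, against 25.7%). With the sum of both windows as library size the counts were 17 and 16. Highest were snR64 (1.35), snR48 (1.05) and snR17a (1.05), the U3 gene. Of their promoters 14 were higher (17.1%) and 20 lower (24.4%), or 9 and 22 with library totals. Neither share was above that of all promoters.

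Most windows of the ribosomal DNA repeat were at the count ceiling and could not be measured. Of its 29 promoter windows, 24 were at the ceiling in all 5 libraries, with 1148 counts in each at ETS1-1. An equal count in libraries of unequal size gives a fold, here 1.60 (SE 0.59), that follows the library totals, and 8 of the 10 highest windows of the naming rule were of this kind. The 5 promoter windows below the ceiling had a median of 0.89, with 4 called higher in a fit without windows near the ceiling. Below it, all 6 gene body windows were called higher, with ETS2-1 at 1.73 and RDN5-2 at 1.54, against 1.87 and 1.48 in Pgk1 IP over the same inputs. The repeat has near-identical copies, so the value of a single copy is uncertain.

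The mitochondrial genome lay on opposite sides of the inputs in the 2 pulldowns. Over 55 promoter windows the median log2 was -0.51 in Rvb1 IP 1 and 0.77 in Rvb1 IP 2, and none was called. At gene bodies the medians were 0.06 and 1.09. OLI1, which encodes a subunit of the ATP synthase, had 189 and 370 CPM there in Rvb1 IP, 266 and 298 CPM in Pgk1 IP, and 138, 134 and 134 CPM in the inputs. All pulldown libraries were above the inputs, and the difference of 1.04 (SE 0.30) was called.

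Chromosome ends were a class in which the control pulldown stood higher. Over the 202 windows of the outermost ORFs the promoter median was -0.09 in Rvb1 IP, and 0.37 in Pgk1 IP over the same inputs. Directly, 54 of these 202 promoters were lower in Rvb1 IP than in Pgk1 IP and 2 were higher, against 12% and 12.3% of all promoters. Over input, 18 were higher (8.9%, against 25.4% of all promoters) and 52 lower (25.7%, against 26.4%). The share lower was thus not above that of all promoters. With the sum of both windows as library size the counts were 28 and 47. The sign over input was not stable: the median was 0.01 over the own-strain input. Beside the centromeres 56 of 174 promoters were higher (32.2%) and 34 lower (19.5%), or 39 and 42 with library totals. Medians per chromosome stayed between -0.18 on chromosome I, with 118 promoter windows, and 0.10 on chromosome V, with 323.

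The differences ran with the level in the input. With windows in 10 bins of mean input count, the promoter median was -0.15 in the lowest bin and 0.28 in the highest, and at gene bodies it was -0.13 and 0.36. The highest bin held 192 higher and 107 lower promoters. The part of this trend in the comparisons above was not tested.

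Against the own-strain input alone few windows were called. That input is 1 library, which was assumed to vary like the other groups. The spread here came from the pairs of pulldowns alone, whereas in the fit over the 3 inputs it also came from the inputs. Log2 of the Rvb1 input over the Rvb2 input had a standard deviation of 0.065 across promoter windows. The part of this in the smaller number of calls was not tested. At promoters 55 of 7034 were called (0.782%), 5 higher (0.0711%) and 50 lower (0.711%), with 1693 at an unadjusted p under 0.05. Those higher were VHR2 (0.76), VMA1 (0.71), DOA4 (0.69), YPL222C-A (0.66) and CSH1 (0.65). VMA1, a subunit gene of the vacuolar ATPase, held 188 and 142 CPM in Rvb1 IP against 102 CPM in the own-strain input and 113 and 112 CPM in the other inputs. Its Rvb1 libraries lay above all inputs. Among the lower were YKR104W (-1.48), YOL160W (-1.41), FLO11 (-1.13), DMC1 (-0.87) and RPS8B (-0.82). At gene bodies 5 were called (0.0711%): tA(AGC)K2 (1.31), YDL185C-A (1.02), FMP16 (0.95) and YNL143C (0.88) were higher (0.0569%) and YBR121C-A (-0.79) was lower (0.0142%), with 1467 at an unadjusted p under 0.05. With the pulldown number as a replicate block, a pairing that the labels do not give, 2016 promoters and 2676 gene bodies were called. Leaving out Rvb1 IP 2 gave 822 and 1029. For the windows named first, the values were close to those over the 3 inputs but not called: SWR1 with RQC1 stood at 1.58 (SE 0.57, edgeR adjusted p = 0.11), QRI5 at 1.28 and MRPL8 at 1.19.

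In a few windows the inputs themselves were unlike. They differed by over 1.5 times at 43 promoter and 33 gene body windows, of which 5 in each table were called. The LEU2 promoter, a common marker gene, held 236 and 255 CPM in Rvb1 IP, 104 and 50 CPM in Pgk1 IP, and 140, 145 and 16 CPM in the inputs. The low input was that of the Pgk1 strain, and the difference was 1.29 over the 3 inputs but 0.81 over the own-strain input, where it was not called. PRM7 had the reverse pattern, with 23 and 47 CPM in Rvb1 IP, 142 and 139 CPM in Pgk1 IP, and 49, 55 and 151 CPM in the inputs. At the threshold itself, NAP1 (0.43), MDM12 (-0.24) and tF(GAA)G (-0.35) were the promoters just inside and ASH1 (-0.28), SML1 (-0.29) and FRE2 (-0.39) those just outside.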

How the data were processed

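The deposited values were raw read counts per window, in 1 table for promoters and 1 for gene bodies, and nothing had been scaled. The submitters' processing notes name bedtools, deepTools, Picard, SAMtools, Bowtie2 and FastQC, without versions. Not given in the sources used here are the genome build, where the windows lie, and how duplicates, multi-mapping reads and strand were handled, so no coordinates or sequences are printed. Of 7036 identifiers, 5956 matched a locus tag of the RefSeq gene table of assembly R64 and 41 a symbol only.

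Counts were tested with edgeR 4.0.16 (R 4.3.3): filterByExpr, TMM, and glmQLFit and glmQLFTest in 1 fit of all 9 libraries in 4 groups (Rvb1 IP, Rvb2 IP, Pgk1 IP, Input), with 5 residual degrees of freedom. Rvb1 IP over Pgk1 IP was a contrast of that fit and shares the Rvb1 libraries with the input contrast. The own-strain comparison made each input its own group, with 3 residual degrees of freedom. The interaction fit joined both windows of a gene, each library as a block with a single size. SE is the log2 value over the square root of F. The steps were tested on simulated counts with known changes.

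Named windows were, from the called windows (mean count 50 or more), with inputs within 1.5 times of each other and both Rvb1 libraries beyond all inputs, the 10 highest and 6 lowest promoters, the 6 highest and 4 lowest gene bodies and the 3 extremes of each sign of the interaction, with RVB1, RVB2, PGK1, SWR1, INO80, GSY1, GLC3, GPH1, HXK1, HSP30, HSP26 and the member of each list with the smallest p. Repeating the rule without windows of at least 90% of the ceiling (12 and 6 promoters, 10 and 4 gene bodies) was chosen after seeing the values, as were list members named as examples. The comparison, the rule and the 17 gene lists were chosen with earlier results of these data known. Lists are described by counts and medians, with no set test. Alternatives included other size factors, DESeq2 1.42.0, filters, a fold threshold, a ceiling correction, other inputs, the pulldown number as a replicate block and leaving out each library. Single-copy values of repeated genes are uncertain.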

Additional observations from a re-analysis of the deposited data

How the results depend on the processing

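Promoter and gene body counts over the 3 inputs stayed within 1.5 times of 3642 and 3439 under other size factors, filters, DESeq2 (3566 and 3271), the ceiling correction (3302 and 3051) and the added exclusions. They fell to 55 and 5 over the own-strain input, 1987 and 1558 with the Rvb1 and Rvb2 inputs averaged, and 0 and 0 for a tested fold of 1.5 (edgeR glmTreat, 515 and 464 at an unadjusted p under 0.05). Leaving out 1 library gave 0 to 4260 and 0 to 4051, with 2020 and 1503 without the Rvb1 input, 2077 and 1641 without the Rvb2 input and 2152 and 1815 without the Pgk1 input. The cause was not tested.

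Over the own-strain input the counts were 107 and 12 with DESeq2 size factors, 11 and 2 with library totals, 0 and 0 with DESeq2 (1468 and 1155 at an unadjusted p under 0.05) and 0 and 0 with the Rvb1 libraries and their input alone (725 and 215). Gene bodies gave 11 under a count minimum of 50 and 16 with the ceiling correction. Leaving out a pulldown gave 0 to 822 and 3 to 1029. The interaction count was 0 over the own-strain input (edgeR, 1804 at an unadjusted p under 0.05) and 1 to 4466 without 1 library. Of the named windows, 41 were called over Pgk1 IP, against 0 to 55 without 1 library: 0 without Rvb1 IP 1 and 12 without Pgk1 IP 2.

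The pulldown number as a replicate block gave 4469 promoters and 4524 gene bodies over the inputs, and 2016 and 2676 over the own-strain input. The labels do not pair the pulldowns. Same-numbered pulldowns deviated together with correlations of 0.23 to 0.73 at promoters and 0.39 to 0.70 at gene bodies.

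Signs turned at uncalled or borderline values. The HSP26 promoter stood at 0.031 with the total over both windows, 0.030 without windows near the ceiling, and -0.044 to 0.038 without 1 library. Without 1 library the promoters of RVB1, SML1 and tF(GAA)G ranged from -0.15 to 0.016, -0.50 to 0.0012 and -0.63 to 0.014. With the total over both windows the TVP15, KKQ8, RQC1 and RVB2 gene bodies stood at -0.014, -0.080, -0.11 and -0.26, and RVB2 at -0.11 with library totals. The RVB1 gene body stood at 0.0050 with DESeq2 size factors, 0.0030 with DESeq2, 0.074 over the own-strain input, 0.028 with the ceiling correction and -0.075 to 0.038 without 1 library. The SLK19 gene body stood at 0.0012 with the ceiling correction and -0.14 to 0.023 without 1 library. At the named windows, 1934 of the other values kept sign and side of the threshold, 515 lost the call and 81 gained it.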
